A study of Mus musculus with 11 samples.

Results

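Deletion of Nemo in hepatocytes that still carried Cxcr6 was described by setting the 3 arrays of mice with a liver-specific knockout of Nemo alone (Nemo KO) against the 2 wildtype arrays. These were 5 of the 11 arrays of the series and were chosen by their titles. All 5 came from hepatocytes isolated from untreated male mice 12 weeks old. The source names give Nemo KO as Cre-positive and wildtype as Cre-negative animals of one Nemo line, so the controls lack Cre recombinase and the comparison contains the presence of Cre as well as the loss of Nemo. The sources used here do not give the promoter that drives Cre. The titles mark the deletion as NemoLPC-KO, and a liver-specific deletion leaves the gene in cells of other organs. A second pair of groups served for comparison: 3 arrays with Cxcr6 knocked out and Nemo intact (Cxcr6 KO, Cre-negative) and 3 arrays lacking both (double KO, Cre-positive), from a Nemo_CXCR6 line. The labels call the replicates biological without saying that each was a separate mouse, so the p-values measure the spread between these arrays.

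Nemo is encoded by Ikbkg and is the scaffold of the IkB kinase complex. The complex also holds the kinases Ikbkb and Chuk, and it marks the inhibitors of NF-kB for destruction when a cell receives signals such as TNF. In hepatocytes, NF-kB induces genes that block death-receptor killing, and livers without Nemo are known for hepatocyte death, inflammation, compensatory division, fibrosis and later tumours. Cxcr6 is a chemokine receptor of T and NKT cells, and it is present in both groups of the main comparison.

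Values are log2 signals of an expression array, 1 per gene and array, so a difference of 1 is a 2-fold ratio of signals. Each gene was set against wildtype replicate 1 and wildtype replicate 2 singly, because those arrays were unlike each other. Across rows they correlated at 0.984, and replicate pairs elsewhere in the series at 0.990 to 0.995. They differed by at least 1 log2 unit in 1199 of 18337 genes tested, while pairs of Nemo KO arrays did so in 245 to 738. In 225 genes the wildtype arrays differed by at least 2 units, and in 185 of these the Nemo KO mean lay between them. The proliferation marker Mki67 is an example, at 5.35 in wildtype replicate 1, 11.18 in wildtype replicate 2, and 8.86, 8.64 and 9.44 in Nemo KO. The Nemo KO mean minus wildtype was thus 3.63 for replicate 1 and -2.20 for replicate 2, and no direction for Mki67 can be read from these arrays. Wildtype replicate 2 also stood apart in genes that differ between male and female mouse liver: its mean of female-biased genes, 11.43, was above the other 10 arrays (9.54 to 10.68), and its mean of male-biased genes, 13.36, was below them (14.07 to 15.08). Its labelled sex was not contradicted by sex-chromosome genes, since Xist was 5.77 on this array and 5.58 to 5.99 over all 11, and the Y-linked Eif2s3y and Uty were 10.38 and 10.33, with 10.004 to 10.68 and 9.89 to 10.47 over all 11. Why this array differs was not tested. The arrays' number limits the precision, and arrays have no read depth.

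The targeted gene did not separate the groups. Ikbkg had a log2 signal of 9.02 and 9.47 in wildtype replicates 1 and 2 and of 9.33, 9.18 and 9.45 in Nemo KO. The groups overlapped, with a difference of 0.07 ± 0.21 (standard error, limma adjusted p = 0.871). The sources used here do not give where the probes of this row lie relative to the deleted part, so Ikbkg does not check the genotype labels. Hepatocyte markers were bright on all 5 arrays. Albumin (Alb) was between 19.82 and 19.93, at or close to the highest value of the table, 19.93. The 19 tested hepatocyte markers averaged 18.34 to 18.48. Alb thus had little room to vary, and these values do not measure how many other cells a sample held.

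A pair of readings of each gene was used, and they answer different questions. The first asked, without a test, whether all 3 Nemo KO arrays lay at least 1 log2 unit above, or below, the nearer of both wildtype arrays; this margin is called the gap below. By it, 36 genes were higher in Nemo KO (0.196% of genes tested) and 28 were lower (0.153%). The second was limma's moderated test with all 11 arrays sharing 1 variance per gene, which called 29 genes at 5% (0.158%), of which 9 rose (0.0491%) and 20 fell (0.109%). Both readings held for 15 genes, and all 29 called genes had wildtype and Nemo KO arrays that did not overlap, with a smallest gap of 0.47 in size. Below 0.05 without adjustment there were 4506 genes, and the smallest adjusted p was 0.0246.

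The number of calls rested on single arrays. It became 186 without wildtype replicate 1, 2380 without wildtype replicate 2, 3 and 4 without Nemo KO replicates 1 and 2, and 1033 without Nemo KO replicate 3. Through the shared variance it also became 6, 0 and 0 without Cxcr6 KO replicates 1, 2 and 3, and 6 and 14 without double KO replicates 2 and 3. It was 0 with only the 5 arrays in the limma fit, where 2743 genes lay below 0.05 without adjustment, as 4091 and 4224 did without Cxcr6 KO replicates 2 and 3. For genes in which wildtype varies more than the remaining groups, the shared variance gives errors that are too small. The split of 9 higher and 20 lower calls became 82 and 959 after median centring of the arrays, and 10 and 5 after quantile normalization. The split of 36 and 28 genes by the gap became 27 and 38, and 65 and 14, under the same scalings. For these reasons the values on each array are given below before any fold change.

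Ly6d, a small membrane-anchored surface protein, had the widest gap of all genes tested. Its log2 signal was 4.84 and 5.58 in wildtype replicates 1 and 2, near the array medians of 5.19 to 5.38, and 13.56, 14.36 and 11.37 in Nemo KO. All 3 Nemo KO arrays were thus far above both wildtype arrays, and the nearest pair was 5.79 apart. Ly6d rose by 7.89 ± 0.78 (limma adjusted p = 0.0246), a 237-fold ratio of signals, in which wildtype lay near the dim end of the arrays, so that the ratio of RNA amounts may differ.

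Gldn (gliomedin), an adhesion protein best known from the nodes of nerve fibres, followed the same pattern. It lay at 4.55 and 4.83 in wildtype and at 9.67, 11.42 and 9.12 in Nemo KO, with a gap of 4.30. Gldn rose by 5.39 ± 0.55 (limma adjusted p = 0.0246), and it was 5.53 above wildtype replicate 1 and 5.24 above replicate 2. The wildtype arrays thus differed little for Gldn and for Ly6d, unlike for Mki67.

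**Figure D1:**
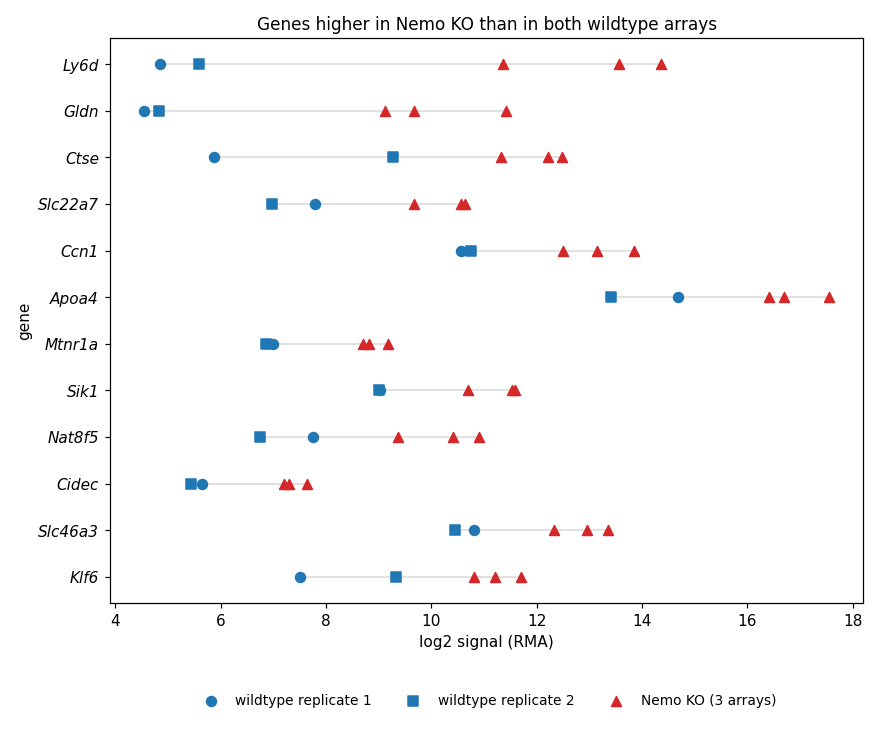
Log2 signal (x axis) of the 12 named genes with the widest gap above both wildtype arrays (y axis), with wildtype replicate 1 as circles, wildtype replicate 2 as squares and the 3 Nemo KO arrays as triangles. The Nemo KO arrays lie to the right of both wildtype arrays for every gene shown, by 5.79 for Ly6d and 1.49 for Klf6, and the wildtype arrays lie far apart for Ctse.

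Ctse, the intracellular aspartic protease cathepsin E, had the next widest gap, 2.05, but did not separate the groups of the series. It was 5.87 and 9.27 in wildtype, and 12.22, 12.48 and 11.32 in Nemo KO. In Cxcr6 KO it was 5.95, 11.83 and 12.08, and in double KO 12.53, 11.19 and 6.19, so arrays of both Cxcr6-deficient groups were either low or high. The difference from wildtype was 4.44 ± 2.20 and did not pass (limma adjusted p = 0.249).

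Among the genes higher in Nemo KO were those of 4 membrane transporters. Slc22a7, the organic anion transporter OAT2 of the hepatocyte membrane, lay at 7.78 and 6.98 in wildtype and at 10.64, 10.57 and 9.67 in Nemo KO. Every Nemo KO array was at least 1.89 above both wildtype arrays, and Slc22a7 rose by 2.91 ± 0.35 (7.52-fold, limma adjusted p = 0.0384). In Cxcr6 KO, with Nemo intact, Slc22a7 was 8.86, 9.17 and 9.39, above both wildtype arrays. Its double KO minus Cxcr6 KO difference was 1.06 ± 0.31 (limma adjusted p = 0.0665). Slc35f2 rose as well, from 5.01 and 5.29 to 7.20, 7.30 and 6.70 (1.92 ± 0.27, adjusted p = 0.0448). The lysosomal transporter gene Slc46a3 was 10.81 and 10.46 in wildtype and 12.95, 13.35 and 12.32 in Nemo KO. The dicarboxylate transporter gene Slc13a3 was 6.88 and 7.45 against 9.17, 9.38 and 8.92. Slc46a3 and Slc13a3 had gaps of 1.51 and 1.47 with limma adjusted p of 0.0553 and 0.0651, and so did not pass. With Nemo intact in the other line, Slc46a3 was as high as in Nemo KO, at 12.96, 13.18 and 13.53 in Cxcr6 KO, whereas Slc13a3 was 6.96, 7.29 and 7.59 there.

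The next genes apart from both wildtype arrays were of mixed function. Sik1, a salt-inducible kinase that restrains gluconeogenic transcription, was 9.02 and 9.002 in wildtype and 11.52, 11.59 and 10.70 in Nemo KO. The wildtype arrays were nearly equal here, and Sik1 rose by 2.26 ± 0.32 (4.79-fold, limma adjusted p = 0.0448). In Cxcr6 KO, with Nemo intact, Sik1 was 9.91, 10.59 and 9.81, above both wildtype arrays. Its double KO minus Cxcr6 KO difference was 0.87 ± 0.29 (limma adjusted p = 0.0914). Klf6, a zinc finger factor induced in injured liver, was 7.50 and 9.32 in wildtype and 11.21, 11.70 and 10.81 in Nemo KO (2.83 ± 0.60, adjusted p = 0.0654). It was 3.74 above replicate 1 and 1.92 above replicate 2, so its size, though not its direction, depended on the wildtype array. Ccn1, a matricellular protein controlled by YAP, was 10.56 and 10.75 against 13.14, 13.85 and 12.49 (2.51 ± 0.44, adjusted p = 0.0564). In Cxcr6 KO, with Nemo intact, Ccn1 was 12.37, 13.38 and 12.42, within or near the range of Nemo KO. Mtnr1a, a melatonin receptor gene, was 7.001 and 6.87 against 8.82, 9.19 and 8.70 (1.97 ± 0.42, adjusted p = 0.0657).

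Genes of lipid transport and storage were also among those higher by the gap. Apoa4, an apolipoprotein secreted with triglyceride-rich particles, was 14.69 and 13.40 in wildtype and 16.70, 17.55 and 16.42 in Nemo KO (2.84 ± 0.49, limma adjusted p = 0.0564). Cidec, which enlarges lipid droplets, was 5.64 and 5.44 against 7.64, 7.30 and 7.20 (1.84 ± 0.56, adjusted p = 0.0959). Beside them, Nat8f5, of an N-acetyltransferase family, was 7.75 and 6.75 against 10.40, 10.90 and 9.36 (2.97 ± 0.45, adjusted p = 0.0542), but it was also 9.36, 9.67 and 10.18 in Cxcr6 KO, where Nemo is intact. The wider list of lipogenesis and triglyceride genes had 35 tested members. Without overlap, 5 of them were higher and 3 were lower, against 11.3% and 24.7% of all genes tested. Fabp1, Dgat2 and Pnpla2 were the lower ones, and Dgat2, the last enzyme of triglyceride synthesis, was 15.88 and 15.64 in wildtype and 15.07, 15.02 and 14.97 in Nemo KO.

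Of the remaining called genes that rose, Vtcn1 encodes an inhibitory B7-family protein of T cell responses. It was 6.54 and 6.83 in wildtype and 8.17, 8.19 and 7.90 in Nemo KO (1.40 ± 0.18, limma adjusted p = 0.0415). C9, the pore-forming last component of complement, was 16.02 and 15.82 against 17.33, 17.06 and 17.03 (1.22 ± 0.16, adjusted p = 0.0415). The gene models 9430037G07Rik and Gm15433 made up the 9. Of the 36 genes higher by the gap, 9 were left unnamed by the rule on names, among them the Mup-ps12, Mup-ps14, Mup-ps15 and Mup-ps16 pseudogene rows, which can share signal with the major urinary protein genes.

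The falls included the desmoglein genes of the desmosome. Dsg1c, a desmoglein that joins neighbouring epithelial cells, was 9.09 and 8.77 in wildtype and 6.26, 6.41 and 7.10 in Nemo KO. All 3 Nemo KO arrays were at least 1.67 log2 units lower than either wildtype array (gap -1.67), and Dsg1c fell by 2.34 ± 0.26 (5.06-fold, limma adjusted p = 0.0317). Dsg1a (7.27 and 7.14 against 5.71, 5.75 and 6.16) and Dsg1b (7.47 and 7.17 against 6.09, 6.12 and 6.36) fell too, by 1.33 ± 0.16 and 1.13 ± 0.15 (adjusted p = 0.0408 and 0.0415). The rows of these near-identical genes can share signal, so they may not be 3 separate measurements. The junction protein gene Jup, which binds desmogleins, was 7.85 and 7.96 in wildtype and 7.58, 7.33 and 7.62 in Nemo KO. Across the list of keratins, desmosomes and junctions, 3 of 26 tested members were lower without overlap and 3, the neural cadherin gene Cdh2, Cldn7 and Krt8, were higher. Over all genes tested, 24.7% were lower without overlap and 11.3% were higher.

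**Figure D2:**
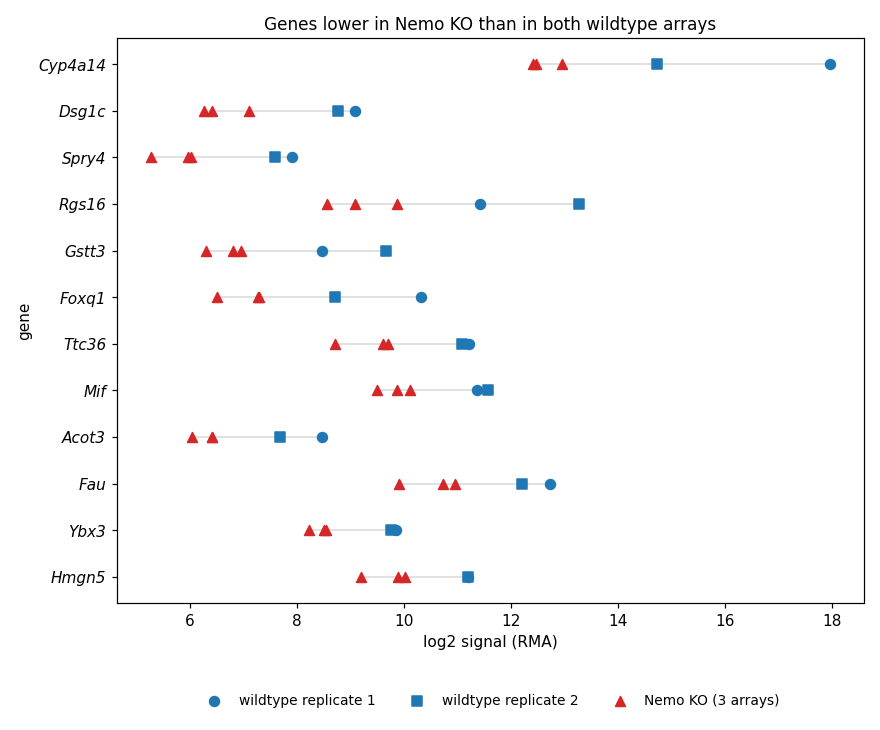
Log2 signal (x axis) of the 12 named genes with the widest gap below both wildtype arrays (y axis), with wildtype replicate 1 as circles, wildtype replicate 2 as squares and the 3 Nemo KO arrays as triangles. The Nemo KO arrays lie to the left of both wildtype arrays for each gene, and wildtype replicate 1 lies 3.24 above replicate 2 for Cyp4a14, at 17.96 against 14.72.

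Enzymes of fatty acid and acyl-CoA metabolism were also among the lower genes. Cyp4a14, a PPAR-alpha target that hydroxylates fatty acids, was 17.96 and 14.72 in wildtype and 12.42, 12.96 and 12.47 in Nemo KO. It lay below both wildtype arrays, but 5.35 log2 units below replicate 1 (-5.35) and 2.11 below replicate 2 (-2.11), and the difference of -3.73 ± 0.73 did not pass (limma adjusted p = 0.0651). Acot3, a peroxisomal acyl-CoA thioesterase, was 8.47 and 7.68 against 6.42, 6.04 and 6.41 (-1.78 ± 0.37, adjusted p = 0.0654). Acss3, a mitochondrial acyl-CoA synthetase for short chains, was 10.61 on both wildtype arrays and 8.93, 9.46 and 9.07 in Nemo KO, and it fell by 1.46 ± 0.21 (adjusted p = 0.0448). Nudt19, a peroxisomal CoA hydrolase, fell by 1.29 ± 0.18 (adjusted p = 0.0448), from 9.88 and 10.12 to 8.94, 8.50 and 8.69.

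Several smaller falls passed the test. Mthfd1, of folate one-carbon metabolism, was 13.75 and 13.81 in wildtype and 13.03, 12.97 and 12.97 in Nemo KO (-0.79 ± 0.09, limma adjusted p = 0.0384). Gsr, glutathione reductase, was 12.35 and 12.15 against 11.47, 11.21 and 11.16 (-0.97 ± 0.13, adjusted p = 0.0415). Fech, the last enzyme of haem synthesis, was 12.16 and 11.91 against 11.22, 11.05 and 11.34 (-0.83 ± 0.12, adjusted p = 0.0448). Car8, a carbonic anhydrase-related protein, was 12.32 and 11.58 against 10.57, 10.39 and 10.56 (-1.44 ± 0.21, adjusted p = 0.0448), and Ybx3, a cold-shock nucleic acid-binding protein, was 9.86 and 9.76 against 8.51, 8.22 and 8.54 (-1.39 ± 0.16, adjusted p = 0.0384). The smallest adjusted p among the falls, 0.0246, belonged to Tmem183a, at 12.03 and 12.17 against 11.18, 10.91 and 11.13 (-1.02 ± 0.10). Card6, Med30, Zkscan1, Zfp456 and Gtpbp10 also fell, by 0.61 to 0.90 log2 units. The remaining 4 were the gene models Gm6877, Gm26684 and 2300009A05Rik and the pseudogene row Mpc1-ps, which can carry signal of its parent gene.

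Signalling genes with wide gaps below wildtype did not pass the test. Spry4, a feedback inhibitor of receptor tyrosine kinases, was 7.92 and 7.60 in wildtype and 5.96, 5.27 and 6.02 in Nemo KO (-2.01 ± 0.36, limma adjusted p = 0.0601). Rgs16, a rhythmic regulator of G-protein signalling, was 11.43 and 13.28 against 8.55, 9.09 and 9.86, so its difference was -2.26 from replicate 1 and -4.11 from replicate 2 (adjusted p = 0.132). The cytokine gene Mif was 11.38 and 11.57 against 9.87, 9.50 and 10.11 (-1.64 ± 0.32, adjusted p = 0.0651). Angptl8, a feeding-induced inhibitor of lipoprotein lipase, was 13.53 and 13.84 in wildtype and 12.45, 9.83 and 9.02 in Nemo KO, where 1 array lay nearer to wildtype than the rest (adjusted p = 0.129). Gstt3, Foxq1, Ttc36 and Akr1d1 had gaps between -1.12 and -1.50.

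**Figure D3:**
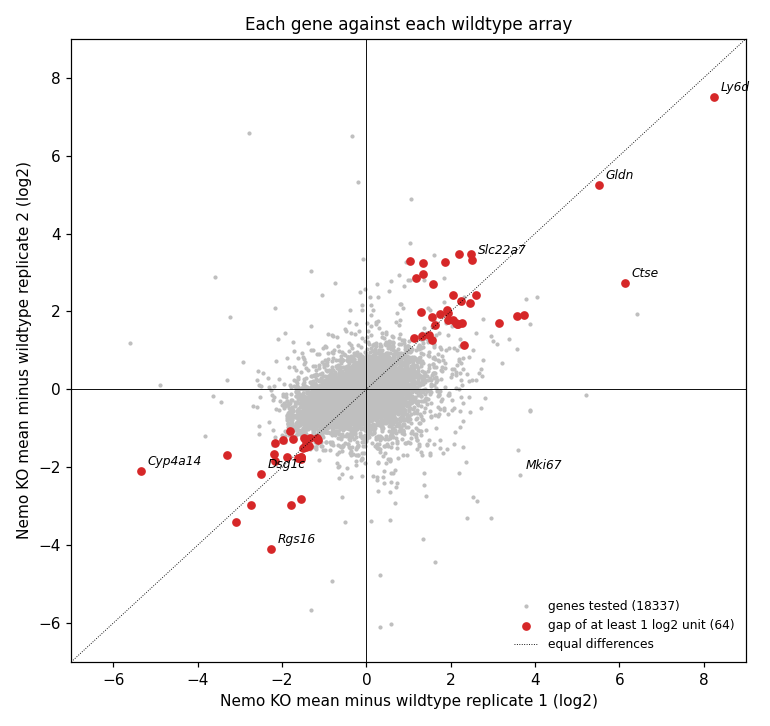
Nemo KO mean minus wildtype replicate 1 (x axis) and minus wildtype replicate 2 (y axis), in log2 units, for the 18337 genes tested (grey) and the 64 genes with a gap of at least 1 (red); the dotted line marks equal differences. Ly6d (8.26 and 7.52) and Gldn (5.53 and 5.24) lie near the line, Ctse (6.14 and 2.74) and Cyp4a14 (-5.35 and -2.11) lie off it, and Mki67 (3.63 and -2.20) changes sign.

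The promoters of Gldn and Klf6 are shown as examples, since both genes were higher on every Nemo KO array than on both wildtype arrays and their promoters match one of the factor motifs searched. They come from RefSeq, build GRCm38.p6, plus strand, and cover the 250 bases before each start site, with the match in capitals. For Gldn, chr9:54286236-54286485, the capitals mark an AP-1 match (TGANTCA, where N is any base) that begins 72 bases before the start. For Klf6, chr13:5861239-5861488, they mark an E-box (CACGTG) that begins 43 bases before it.
Gldn: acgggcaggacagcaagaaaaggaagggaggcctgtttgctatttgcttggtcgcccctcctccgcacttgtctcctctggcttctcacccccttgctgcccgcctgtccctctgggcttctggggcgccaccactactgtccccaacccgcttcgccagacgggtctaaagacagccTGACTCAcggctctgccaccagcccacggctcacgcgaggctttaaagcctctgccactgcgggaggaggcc
Klf6: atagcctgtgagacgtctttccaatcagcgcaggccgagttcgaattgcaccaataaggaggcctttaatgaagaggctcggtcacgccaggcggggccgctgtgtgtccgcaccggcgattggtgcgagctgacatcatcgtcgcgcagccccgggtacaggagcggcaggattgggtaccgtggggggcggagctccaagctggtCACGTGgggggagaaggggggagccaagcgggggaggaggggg

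Both strands of each 250-base promoter were searched for 3 motifs, none of which contains another. Of 26 matched promoters of genes higher by the gap, Gldn alone held the AP-1 letters (3.85%, against 4.99% of 10721 promoters of tested genes). Klf6, Mtnr1a, Ppp1r9a and Slc13a3 held the E-box (15.4%, against 8.06%). Nat8f5 and Slc13a3 held the NF-kB letters GGGNNTTNCC (7.69%, against 4.54%). Of 12 matched promoters of lower genes, As3mt held AP-1 letters, Ildr2 held the E-box and 0 held the NF-kB letters. Ly6d was not matched. A match is a description of letters in a window and not a site of binding.

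Genes of the IKK and NF-kB pathway were examined as a list, with the limits that follow for all lists. A list was counted by how many members had all 3 Nemo KO arrays above, or below, both wildtype arrays. Over all genes tested this held for 2075 higher (11.3%) and 4532 lower (24.7%), and the median difference was -0.04. After median centring of the arrays the counts were 1242 and 6676 of 18267 genes, and after quantile normalization 2723 and 3291 of 18274. Members' counts are to be read against these shares, and no list was tested. The shares also depended on brightness. With a stricter filter on dim genes, 1073 of 12920 genes were higher and 4212 were lower. With no such filter, 3730 of 30142 were higher and 4869 were lower. Bright lists and dim lists thus have different shares to be read against, and no share was made for genes as bright as a list's members.

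In the IKK and NF-kB list, 8 of 28 tested members were lower without overlap and 1 was higher, close to the share of all genes that were lower. The inhibitor subunit gene Nfkbib was 9.77 and 9.70 in wildtype and 9.34, 9.001 and 9.34 in Nemo KO. Birc2, an antagonist of death-receptor killing, was 9.22 and 8.94 against 8.61, 8.67 and 8.67, and the deubiquitinase gene Cyld was 8.45 and 8.28 against 8.03, 7.998 and 7.87. Sod2, a mitochondrial superoxide dismutase and NF-kB target, was 9.38 and 8.59 against 8.36, 8.04 and 8.30. None of the 28 passed the test, and the limma adjusted p of these 4 lay between 0.0869 and 0.0974. The kinase subunit gene Ikbkb overlapped between the groups, at 8.35 and 8.68 against 8.39, 8.56 and 8.44. Cflar, Rbck1, Rnf31 and Sharpin, of death-receptor signalling and linear ubiquitin, were the other lower members, and the kinase gene Map3k14 was the higher one.

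Death-receptor and cell-death genes gave 6 of 26 lower members and 2 higher ones, against 24.7% and 11.3% of all genes tested. The count of lower members was close to that share. The inflammatory caspase genes Casp1 and Casp4 were the higher ones. Cycs, the cytochrome c gene, was 14.49 and 13.98 in wildtype and 13.46, 12.56 and 13.57 in Nemo KO. Bak1, a pore-forming protein of mitochondrial death, was 6.58 and 6.73 against 6.33, 6.31 and 6.17. Among p53 targets, 3 of 20 were higher and 2 lower, and the inhibitor gene Cdkn1a (8.91 and 11.46 in wildtype; 9.48, 9.45 and 10.37 in Nemo KO) lay between the wildtype arrays. Neither list had a member that passed.

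Complement and coagulation genes had many higher members. Of 30 tested members, 15 were higher without overlap and 0 were lower, against 11.3% and 24.7% of all genes. C9 was the member that passed. C6, of the same membrane attack complex, was 14.69 and 13.08 in wildtype and 16.06, 16.37 and 15.70 in Nemo KO (limma adjusted p = 0.0654). Hc, which encodes complement C5, was 17.51 and 17.71 against 18.47, 18.38 and 18.27 (adjusted p = 0.0553), and C4b was 15.97 and 16.43 against 17.16, 16.85 and 17.07 (adjusted p = 0.0736). The list's median difference was 0.48 against replicate 1 and 0.12 against replicate 2. With each array centred the count of higher members was 7, against 1242 of 18267 genes tested. C6, C8a and C9 also stand in the list of male-biased genes, whose mean was low in wildtype replicate 2.

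Acute-phase genes, which hepatocytes secrete in inflammation, were higher without overlap in 9 of 27 members and lower in 3. Of all genes tested, 11.3% were higher and 24.7% lower. Saa1 was 11.02 and 12.50 in wildtype and 15.90, 13.38 and 15.14 in Nemo KO, a difference of 3.05 ± 0.67 that did not pass (limma adjusted p = 0.0674). Lrg1, a leucine-rich plasma glycoprotein, was 13.66 and 12.54 against 15.95, 14.76 and 15.02 (adjusted p = 0.0753). Orm3 and Serpina3n were 8.38 and 8.43 against 9.73, 9.32 and 10.05, and 16.84 and 16.54 against 17.56, 17.70 and 17.48. Orm1, Orm2, Saa2, Itih3 and Lcn2 were the other higher members, whereas Crp, Lbp and Saa3 were lower. The list's median was 0.68 against replicate 1 and 0.09 against replicate 2.

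Markers of liver tumours and of fetal liver were higher without overlap in 15 of 25 members and lower in 2. The shares of all genes tested were 11.3% higher and 24.7% lower. This list holds Ly6d and Gldn, which were known from these data when it was written, so it is not independent evidence. Golm1, a Golgi membrane protein used as a tumour marker, was 6.59 and 7.02 in wildtype and 8.21, 8.59 and 7.73 in Nemo KO (1.37 ± 0.22, limma adjusted p = 0.0553). Lcn2, a siderophore-binding protein, was 6.40 and 7.93 against 9.11, 8.42 and 9.30 (adjusted p = 0.0753). The fetal gene Afp stayed near the array medians, at 5.36 and 5.62 against 5.71, 5.85 and 5.70. The list's median was 0.48 and 0.29 against replicates 1 and 2.

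Genes of fatty acid oxidation and of PPAR-alpha had more lower than higher members, as did the genes tested as a whole (24.7% and 11.3%). Without overlap, 15 of 37 members were lower and 1, the pyruvate dehydrogenase kinase gene Pdk4, was higher. Acadl, a dehydrogenase of long-chain fatty acids, was 15.21 and 14.72 in wildtype and 13.79, 13.11 and 13.73 in Nemo KO (-1.43 ± 0.23, limma adjusted p = 0.0553). Acot4 was 8.39 and 8.33 against 6.93, 7.33 and 7.16 (-1.22 ± 0.21, adjusted p = 0.0553). Acadm, Cpt2, Hadh, Hadha, Hadhb and Etfdh, of the mitochondrial pathway itself, were among the 15. The median of the list was -0.82 against replicate 1 but -0.06 against replicate 2. With quantile normalization 8 members were lower and 4 higher, against 3291 and 2723 of 18274 genes tested.

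Urea cycle and amino acid genes were lower in 15 of 32 members and higher in 2, against 24.7% and 11.3% of all genes tested. Phgdh and Slc25a15 were the higher ones. Hal, which degrades histidine, was 14.78 and 16.11 in wildtype and 14.52, 13.56 and 14.31 in Nemo KO. Gldc, of glycine cleavage, was 12.45 and 13.41 against 11.74, 11.65 and 12.01, and Fah, of tyrosine breakdown, was 15.28 and 15.61 against 14.89, 14.61 and 15.17. Here wildtype replicate 2 was the higher array, and the medians were -0.18 against replicate 1 and -0.56 against replicate 2. With quantile normalization 6 members were lower, close to the share of all genes under that scaling, 3291 of 18274. No member passed the test.

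Among hepatocyte transcription factors, 7 of 23 were lower without overlap and 1, Cebpb, was higher, against 24.7% and 11.3% of all genes tested. The count of lower members was close to that share. Hnf4a, the central factor of hepatocyte identity, was 13.65 and 13.08 in wildtype and 12.61, 12.24 and 12.73 in Nemo KO (-0.84 ± 0.20, limma adjusted p = 0.0736). Foxa2 was 10.34 and 8.09 against 7.81, 7.54 and 7.62, so it was 2.69 log2 units below replicate 1 (-2.69) and 0.43 below replicate 2 (-0.43). The median of the list was -0.24, and with quantile normalization 2 members were lower, against 3291 of 18274 genes tested.

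Pericentral genes that depend on Wnt signals had similar medians against each wildtype array, 0.39 against replicate 1 and 0.47 against replicate 2. Without overlap, 7 of 19 were higher and 1 was lower, against 11.3% and 24.7% of all genes tested. Lgr5, a Wnt target and receptor for R-spondins, was 6.67 and 6.91 in wildtype and 7.84, 8.40 and 7.70 in Nemo KO. Gulo, of vitamin C synthesis, was 15.20 and 15.32 against 16.37, 16.93 and 16.07. Notum, Slc1a2, Slc1a4, Cyp27a1 and Slc13a3 were the other higher members, and Rgn was the lower one. The limma adjusted p of Lgr5 and Gulo were 0.0879 and 0.0753. The list's array means were 11.60 and 11.44 in wildtype and 12.13, 12.28 and 11.85 in Nemo KO. In Cxcr6 KO, where Nemo is intact, they were 11.79, 12.10 and 12.18. The list's median for double KO minus Cxcr6 KO was 0.05.

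Several programs had opposite medians against each wildtype array, so that no direction can be given. Cell cycle genes had a median of 0.69 against replicate 1 and -0.94 against replicate 2. Of 41 members 0 were higher and 2 lower without overlap, against 11.3% and 24.7% of all genes tested. Pcna (9.47 and 9.93 in wildtype; 8.96, 8.92 and 8.97 in Nemo KO) and Tk1 were the lower ones. Interferon-stimulated genes had medians of 0.23 and -0.48, and Cxcl9, a chemokine for activated T cells, was 9.998 and 14.37 in wildtype and 8.89, 7.96 and 9.22 in Nemo KO. Unfolded protein and integrated stress response genes had medians of -0.40 and 0.33.

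Genes with a sex difference in mouse liver separated the wildtype arrays too. Female-biased genes averaged 9.93 in wildtype replicate 1 and 9.54, 9.88 and 9.75 in Nemo KO, all below replicate 2. Male-biased genes averaged 14.84 in replicate 1 and 15.08, 14.84 and 14.41 in Nemo KO, all above replicate 2. The medians of the female-biased and male-biased lists were 0.07 and 0.04 against replicate 1, and -1.10 and 0.87 against replicate 2. Cholesterol synthesis genes did the reverse, with a median of 1.33 against replicate 1 and -0.05 against replicate 2. Sqle, its squalene epoxidase, was 10.67 and 12.89 in wildtype and 13.32, 13.60 and 12.38 in Nemo KO.

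**Figure D4:**
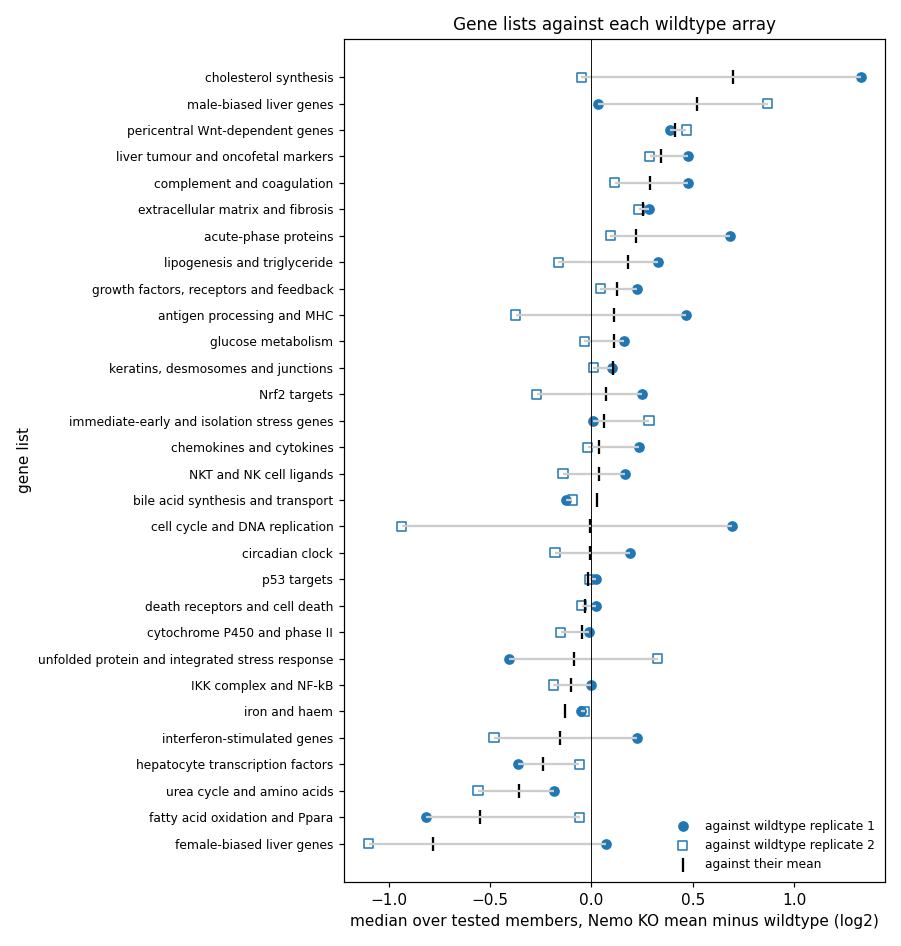
Median over tested members of the Nemo KO mean minus wildtype (x axis, log2 units) for each of the 30 gene lists (y axis), against wildtype replicate 1 (filled circles), replicate 2 (open squares) and their mean (ticks). Extracellular matrix (0.28 and 0.24) and pericentral genes (0.39 and 0.47) give close values on both, while cell cycle (0.69 and -0.94) and cholesterol synthesis (1.33 and -0.05) do not.

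Immediate-early genes, which respond to tissue handling and to injury, were higher in 7 of 34 members and lower in 0. Of all genes tested, 11.3% were higher and 24.7% lower. The list's median was 0.008 against replicate 1 and 0.28 against replicate 2. Its array means were 9.87 and 9.42 in wildtype and 9.97, 9.76 and 9.69 in Nemo KO, so wildtype replicate 1 lay among the Nemo KO arrays. Nr4a1 was 8.17 and 10.26 in wildtype and 11.70, 11.82 and 11.17 in Nemo KO, Atf3 was 9.72 and 9.83 against 12.16, 11.19 and 10.33, and Jun was 14.26 and 13.78 against 14.79, 14.51 and 14.45. The limma adjusted p of these 3 lay between 0.0872 and 0.115. The clock list gave 3 higher and 6 lower members of 26, close to the 11.3% and 24.7% of all genes tested. Its medians were 0.19 against replicate 1 and -0.18 against replicate 2. Of the higher ones, Bhlhe40 was 11.84 and 11.89 against 13.39, 13.41 and 12.71, and Noct was 8.43 and 7.42 against 9.16, 11.01 and 10.67. Arntl, Clock, Cry1, Hlf, Nampt and Rgs16 were the lower ones. The sources used here do not give the time of day of sampling.

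Extracellular matrix genes and markers of stellate cells, endothelial cells, macrophages and cholangiocytes had many higher members and few lower ones. Of 30 tested matrix genes, 19 were higher without overlap and 0 were lower, against 11.3% and 24.7% of all genes tested. The list's medians were 0.28 and 0.24 against replicates 1 and 2. Lgals1, a secreted galectin, was 8.65 and 8.53 in wildtype and 9.50, 9.42 and 9.80 in Nemo KO (0.98 ± 0.21, limma adjusted p = 0.0654). Decorin (Dcn) was 7.63 and 8.41 against 9.11, 9.55 and 9.31 (adjusted p = 0.132), and collagen genes were nearer to the dim end, with Col1a1 at 5.75 and 5.88 against 6.14, 6.10 and 6.12.

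Markers of stellate cells and fibroblasts were higher in 10 of 14 members and lower in 0, with array means of 5.97 and 6.22 in wildtype and 6.45, 6.57 and 6.48 in Nemo KO. Endothelial markers were higher in 16 of 24 and lower in 0, with means of 6.75 and 6.73 against 6.99, 7.04 and 7.40. For stellate and endothelial markers alike, the shares of all genes tested were 11.3% higher and 24.7% lower. Pecam1, an endothelial adhesion molecule, was 6.45 and 6.20 against 6.68, 6.68 and 6.99. Col1a1, Col1a2, Col3a1, Dcn and Lum stand in both the matrix and the stellate lists. More cells of a type and more RNA per cell cannot be told apart in such bulk samples, and the part that other cells had in the matrix result was not tested.

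Macrophage markers were higher in 9 of 27 members and lower in 1, against 11.3% and 24.7% of all genes tested. The lower one was the iron exporter gene Slc40a1. Lyz2, macrophage lysozyme, was 6.37 and 7.53 in wildtype and 8.87, 8.38 and 9.63 in Nemo KO (2.01 ± 0.50, limma adjusted p = 0.0764). The array means were 6.43 and 7.45 against 7.52, 7.21 and 8.22, so wildtype replicate 2 lay among the Nemo KO arrays. On these 5 arrays the markers moved with the acute-phase genes, whose means were 13.76 and 14.49 against 14.78, 14.25 and 14.79. In double KO the macrophage means were 7.70, 8.38 and 8.26, and the acute-phase means 13.99, 13.90 and 14.07, below wildtype replicate 2. In Cxcr6 KO they were 6.755, 6.999 and 6.805, and 13.61, 13.46 and 13.72. The part of macrophages in the acute-phase result was not tested. Of 14 markers of cholangiocytes and progenitors, 7 were higher and 0 lower, with means of 6.37 and 6.54 against 6.58, 6.64 and 6.50. Few markers of T cells (4), NK and NKT cells (4), neutrophils (5) and B cells (4) passed the filter on dim genes, and the T cell genes Cd3d, Cd3g and Cd28 stayed between 5.07 and 5.68 on all 5 arrays. Without overlap, T cells had 1 higher and 1 lower marker, B cells had 2 higher, and NK and NKT cells and neutrophils had 0. Monocyte and dendritic cell markers were higher in 2 of 10, and erythroid and platelet markers in 1 of 5, with 0 lower in either list. None of the cell type markers passed the test. Cxcr6 itself was 5.35 and 5.47 in wildtype and 4.98, 5.30 and 5.25 in Nemo KO, and its ligand gene Cxcl16 was 5.69 and 6.09 against 6.10, 6.10 and 6.61.

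The same deletion without Cxcr6, double KO against Cxcr6 KO, shares no array with this comparison, although both use the same variance per gene. There limma called 631 genes higher (3.44%) and 727 lower (3.96%). Ly6d was 5.19, 5.37 and 4.80 in Cxcr6 KO and 14.80, 13.90 and 15.60 in double KO, and Gldn was 5.56, 4.92 and 4.95 against 10.79, 10.52 and 11.04. Neither gene's arrays with Nemo deleted overlapped those with Nemo intact, over all 11 arrays. Of the 9 genes that rose in Nemo KO, 9 had a higher mean in double KO than in Cxcr6 KO and 7 were called. Slc22a7 and Sik1 were not called there. Of the 20 that fell, 20 had a lower mean and 11 were called. Over all genes tested, 62.6% had the same sign in both comparisons.

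Genes chosen by the gap were compared in the same way. For 27 of the 36 higher genes and 26 of the 28 lower ones, every Cxcr6 KO array lay on the wildtype side of every Nemo KO array. The 9 other higher ones were Slc46a3, Nat8f5, Ccn1, Ctse, Ces2d-ps and the 4 Mup-ps rows, and the 2 other lower ones were Foxq1 and Angptl8, so for these only the wildtype arrays were set apart from all Nemo KO arrays. Of the 36 higher ones, 32 had the same sign without Cxcr6 and 21 were called in that direction; of the 28 lower ones, 27 had the same sign and 8 were called. The 4 exceptions among the higher genes were the Mup-ps rows, with differences between -1.22 and -1.62. Klf6 was 7.01, 7.73 and 7.19 in Cxcr6 KO and 11.16, 10.42 and 12.16 in double KO, and it rose there by 3.94 ± 0.53 (limma adjusted p = 0.00964). Apoa4 rose there by 3.49 ± 0.44 and Spry4 fell by 2.23 ± 0.33 (limma adjusted p = 0.00856 and 0.0122). Vtcn1 rose by 1.42 ± 0.17 without Cxcr6, next to 1.40 ± 0.18 with it.

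**Figure D5:**
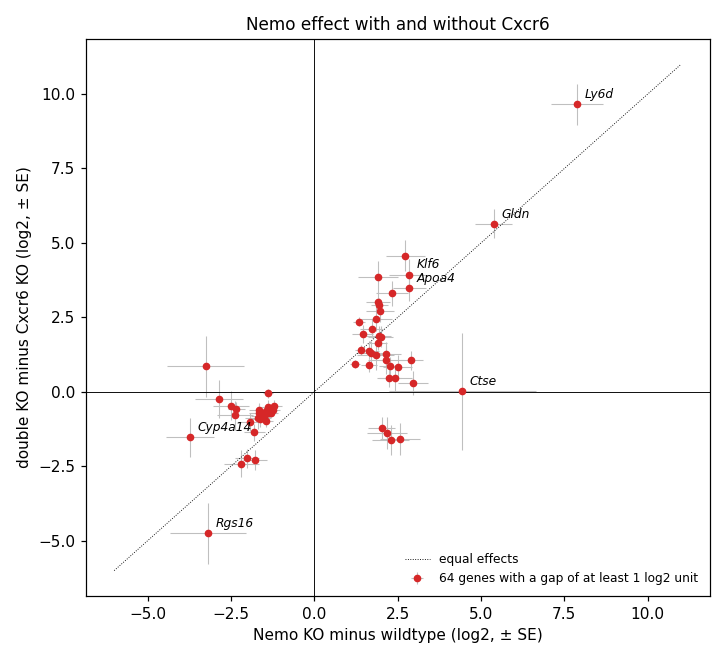
Log2 difference with its standard error for Nemo KO minus wildtype (x axis) and for double KO minus Cxcr6 KO (y axis), for the 64 genes with a gap of at least 1; the dotted line marks equal effects. Gldn (5.39 and 5.64) lies near the line, and Ly6d (7.89 and 9.65) lies above it, with a difference of effects of 1.76 ± 1.05. The 4 genes at the lower right are higher in Nemo KO and have negative values on the y axis.

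The difference between the Nemo effects with and without Cxcr6 was tested directly. limma called 0 genes (0%), with a smallest adjusted p of 0.252 and 2155 genes below 0.05 without adjustment. The count was 232 without wildtype replicate 1, 86 without wildtype replicate 2 and 7 without double KO replicate 1, and 1 without Nemo KO replicate 3 or double KO replicate 3. For Dsg1c the difference of effects was 1.76 ± 0.34 (limma adjusted p = 0.251): it fell by 2.34 in Nemo KO, and was 7.80, 7.77 and 7.48 in Cxcr6 KO and 7.35, 6.80 and 7.18 in double KO. For Ybx3 it was 1.33 ± 0.21 (adjusted p = 0.251), with 9.11, 9.62 and 9.54 against 9.48, 9.32 and 9.32. Saa1, higher in Nemo KO, was 11.00, 10.57 and 11.23 in Cxcr6 KO and 11.55, 10.96 and 11.64 in double KO (difference of effects -2.60 ± 0.90, adjusted p = 0.339). Cxcr6 state and mouse line cannot be told apart in this test.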

How the data were processed

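RNA from hepatocytes (300 ng of total RNA per sample, labelled with biotin, per the labels' protocols) was measured on 11 arrays. The authors deposited log2 values made with Affymetrix Expression Console, RMA and Transcriptome Analysis Console, per the submitters' processing notes; versions and the genome build are not given in the sources used here. Of 65956 rows, 30604 carried 1 gene symbol, 2146 several and 33206 none. Symbols were updated by gene identifier against RefSeq GRCm38.p6 (22818 matched, 827 changed). Of 30142 genes, 18337 had a highest group mean of at least 5.27, the median row mean, and were tested; for 355 genes with several rows the row with the highest mean was used. limma 3.58.1 in R 4.3.3 fitted a mean per group to all 4 groups (7 residual degrees of freedom, prior 2.13), two-sided, with Benjamini-Hochberg adjustment at 5%; the fit was tested on simulated data. Errors are standard errors. Genes, members and lists were chosen with earlier results of these data known. Named were the 12 largest calls and 12 widest gaps each way, up to 4 members of each list with the smallest p, and 8 set genes, leaving out gene models and pseudogenes; others (Ikbkb, Xist, Eif2s3y, Uty, Angptl8, Lrg1, Mthfd1, the smaller calls, and list members given without values) were chosen after their values were seen. Normalization, filters, variance model, array weights, threshold, gap, replicate block and each array left out were varied.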

Additional observations from a re-analysis of the deposited data

Results flagged for a closer look

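The report used rows with 1 gene symbol. Among the 35352 rows with several symbols or none, 43 were at least 1 log2 unit higher on every Nemo KO array than on both wildtype arrays, with a widest gap of 3.40, and 4 were at least 1 log2 unit lower, with a widest gap of -1.68. These rows stand outside the comparisons above and were not tested. No group held 4 or more arrays, so none could be searched for a single outlying array.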

How the results depend on the processing

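The 29 calls of Nemo KO against wildtype became 1041 with each array centred on its median, 15 with quantile normalization, 7 with no filter on dim genes, 85 with a stricter filter, 0 with only the groups compared, 11 with an intensity trend and robust settings, 0 with array weights, 1877 at 10% and 0 at 1%. Leaving out each array in turn gave 0 to 2380. A lone wildtype array is there assumed to vary like the other groups. At an unadjusted p under 0.05, 2743 genes passed with only the groups compared and 3247 with array weights. The 64 genes by the gap became 414 at 0.5 units and 3 at 2 units, and 64 to 777 with an array left out; 55 of them kept their gap after centring and 49 after quantile normalization. The 1358 calls of the Nemo deletion without Cxcr6 became 4692 with array weights, 2789 with only the groups compared, 3305 at 10%, 77 at 1% and 116 to 2340 with an array left out. The difference between the Nemo effects had 0 calls under every alternative fitted by limma with all 11 arrays (1493 to 3480 genes below 0.05 unadjusted), and 0 to 232 with an array left out. The cause was not tested.

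With the replicate number as a block, 0 genes were called by limma for Nemo KO against wildtype, with 4545 below 0.05 unadjusted. Same-numbered arrays had correlations of deviations of 0.275 and 0.146, over the 2 numbers both groups share, and -0.146 and -0.275 with the other number, so these 2 pairs are too few to show pairing. No called gene among those named changed direction under any alternative run. The number of wildtype arrays and their spread limit every comparison with wildtype.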
